A study of Mus musculus with 9 samples.

Results

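The 59 genes described here are the protein-coding mouse genes of the Rab family, taken from 21627 protein-coding genes of the RefSeq annotation of GRCm38 by a symbol made of Rab, a number and at most 1 further letter. For each gene, the open chromatin regions in its body and up to 10 kb beyond either end were taken from 3 ATAC-seq peak lists of sorted mouse peritoneal macrophages. ATAC-seq marks open DNA by the insertion of sequencing adapters with the Tn5 transposase. Each list pools the 3 samples of a group, so replicate spread cannot be given, depth is not known, and differences between groups were not tested. A region that is absent from a list was not detected there, which does not show that the DNA was closed.

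All 9 samples came from mice of the genotype Cx3cr1CreERT2-IRES-EYFP/+ Rosa26-stopfl-tdTomato/+, in which Cx3cr1, a chemokine receptor gene of the monocyte lineage, drives a tamoxifen-inducible Cre recombinase and Cre switches on a tdTomato reporter. All mice received IL-4 complexes, given every other day from 4 days ahead of harvest, made of 5 µg of the cytokine and 25 µg of anti-IL-4. In the monocyte-derived group, cells were taken on day 4 after 2 ml of thioglycollate, an irritant that recruits monocytes to the peritoneum. In the tissue-converted group, the mice had 2 ml of thioglycollate and 8 weeks of tamoxifen in the diet. No further treatment is stated for the tissue-resident group, and age and sex are not given for any group. Cell origin thus cannot be told apart from the irritant or the harvest time in monocyte-derived against resident, from diet and time in converted against monocyte-derived, and from irritant and diet in converted against resident.

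Rab proteins are small GTPases that act as switches on membranes. Bound to GTP they recruit effectors such as tethers, motors and lipid kinases, and bound to GDP they are taken off membranes by GDP dissociation inhibitors. Exchange factors load GTP, GTPase-activating proteins of the TBC family trigger its hydrolysis, and an escort protein presents newly made Rabs to a geranylgeranyl transferase that adds the lipid anchor. In macrophages, Rab5 acts on early endosomes and young phagosomes, Rab7 on their late, lysosome-fusing forms, Rab11 on recycling endosomes and Rab27a on secretory lysosome-related organelles.

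The monocyte-derived list held 33694 peaks, the converted list 15552 and the resident list 24348, and p-values of single peaks, as the authors deposited them, reach a floor of 1e-12. Peaks above 1e-05 numbered 1267 in the monocyte-derived, 0 in the converted and 5476 in the resident list. Because list lengths differ, counts are also given with every list reduced to its 15552 peaks of smallest p-value, called equal lengths below. Of 10 macrophage markers, 10 had a region in the monocyte-derived, 5 in the converted and 10 in the resident list. The gaps of the converted list included Spi1, Adgre1, Mertk, Fcgr1 and Itgam, with 0 regions each, and Csf1r had 1. Of 8 genes of large peritoneal macrophages, 5, 3 and 8 had a region in those lists, in the same order, and Gata6 had 0 regions in the monocyte-derived, 2 in the converted and 1 in the resident list. Mast cell markers had 0 regions in every list (5 genes). Of 6 B cell genes 2, 1 and 2 had a region, of 6 T and NK cell genes 1, 0 and 0, of 6 neutrophil and eosinophil genes 1, 2 and 3, and of 5 mesothelial or stromal genes 1, 0 and 1, and the summed regions of these 4 lists ranged from 0 to 4. The part of other cells or of list length in the Rab results was not tested.

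The promoters of 7 Rab genes are shown because their start sites were called in different sets of lists. RefSeq gave promoter entries for 48 of the 59 genes. Each stretch is the 250 bases before the annotated start, written 5′ to 3′ on the gene's strand and credited to RefSeq, GRCm38. Capitals mark matches, on either strand, to the GC box GGGCGG, the CCAAT box, the E-box CACGTG, the ETS core CCGGAAG, the CREB site TGACGTCA and the YY1 core AAGATGGC. Rab5a (chr17:53478984-53479233, plus strand) and Rab8a (chr8:72160950-72161199, plus strand) had a start peak in all 3 lists.
Rab5a: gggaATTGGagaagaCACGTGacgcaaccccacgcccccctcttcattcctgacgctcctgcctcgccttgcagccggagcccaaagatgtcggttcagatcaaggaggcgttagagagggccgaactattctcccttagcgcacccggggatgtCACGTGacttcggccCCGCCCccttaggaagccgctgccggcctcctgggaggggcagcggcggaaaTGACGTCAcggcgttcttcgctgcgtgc
Rab8a: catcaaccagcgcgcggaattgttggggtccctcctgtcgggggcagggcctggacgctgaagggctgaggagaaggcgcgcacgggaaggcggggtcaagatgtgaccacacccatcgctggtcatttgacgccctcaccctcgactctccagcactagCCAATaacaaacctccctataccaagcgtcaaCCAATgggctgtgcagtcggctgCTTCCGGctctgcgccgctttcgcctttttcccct
Rab11a (chr9:64737757-64738006, minus strand) had a start peak in the monocyte-derived and resident lists only.
Rab11a: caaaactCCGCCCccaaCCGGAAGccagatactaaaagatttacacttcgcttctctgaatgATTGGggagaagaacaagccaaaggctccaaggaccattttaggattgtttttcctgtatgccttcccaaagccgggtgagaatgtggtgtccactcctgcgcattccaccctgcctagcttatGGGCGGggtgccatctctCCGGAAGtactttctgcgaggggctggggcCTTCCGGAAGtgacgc
Rab7 (chr6:88045271-88045520, minus strand) and Rab31 (chr17:65772753-65773002, minus strand) had a start peak only in the monocyte-derived list.
Rab7: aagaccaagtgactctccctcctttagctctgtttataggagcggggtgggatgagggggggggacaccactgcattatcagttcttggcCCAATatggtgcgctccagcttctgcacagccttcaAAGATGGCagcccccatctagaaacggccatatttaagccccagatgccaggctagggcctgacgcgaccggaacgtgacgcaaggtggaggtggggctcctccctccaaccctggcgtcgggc
Rab31: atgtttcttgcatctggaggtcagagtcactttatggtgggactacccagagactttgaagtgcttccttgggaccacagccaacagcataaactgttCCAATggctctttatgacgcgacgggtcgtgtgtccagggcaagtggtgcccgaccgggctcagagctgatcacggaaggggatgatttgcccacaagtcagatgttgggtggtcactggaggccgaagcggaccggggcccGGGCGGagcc
Rab20 (chr8:11478641-11478890, minus strand) had regions but no start peak, and Rab3b (chr4:108878820-108879069, plus strand) had no region in any list.
Rab20: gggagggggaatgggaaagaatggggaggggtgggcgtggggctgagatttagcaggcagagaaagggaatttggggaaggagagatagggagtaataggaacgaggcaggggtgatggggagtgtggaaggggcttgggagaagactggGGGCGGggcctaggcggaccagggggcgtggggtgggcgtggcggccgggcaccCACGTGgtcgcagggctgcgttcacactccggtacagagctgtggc
Rab3b: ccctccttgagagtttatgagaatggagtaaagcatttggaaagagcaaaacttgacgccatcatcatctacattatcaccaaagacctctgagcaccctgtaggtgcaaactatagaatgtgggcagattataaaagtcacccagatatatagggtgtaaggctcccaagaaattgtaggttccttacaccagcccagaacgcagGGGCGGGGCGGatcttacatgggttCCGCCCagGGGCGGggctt
The Rab5a stretch holds 23 CpG sites, 2 E-boxes and 1 CREB site, the Rab11a stretch 4 ETS cores on both strands, and the Rab3b stretch 6 CpG sites with 4 GC boxes. Overlapping matches are counted separately, so 2 of the ETS cores share 1 run of capitals, as do 2 of the GC boxes. A match is a description of letters and not a measured binding site.

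Open chromatin was called at 53 of the 59 Rab genes in at least 1 list. The monocyte-derived list had a region in the windows of 52 Rab genes, the converted list in 42 and the resident list in 47. The share of all protein-coding genes with a region was 60.2%, 43.2% and 54.0% in those lists. Only 6 Rab genes, or 10.2%, had no region in any list, against 36.5% of all genes. These were Rab3b, Rab9b, Rab15, Rab27b, Rab39b and Rab44. Among them, Rab3b and Rab27b are relatives of Rab3a and Rab27a, which act in regulated exocytosis and did have regions. Rab genes were somewhat longer than others, with a median length of 23.2 kb against 17.3 kb, and the part of length in these shares was not tested.

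Together the 59 windows held 155 regions, which are peaks merged across lists where they overlapped. The count per gene had a median of 3 and reached 12 at Rab31, followed by 6 at Rab27a and at Rab4b. Summed over genes, 137 regions were called in the monocyte-derived, 64 in the converted and 95 in the resident list. The gene body held 108 of the 155 regions. The flanks are crowded, since 40 of the 59 windows contain part of another protein-coding gene, and 39 regions lay nearest the end of such a neighbour. For Rab13, Rab25, Rab26, Rab34, Rab40b and Rab42 every region was so assigned, and their counts may describe the neighbours. The Rab13 start region is an exception in part, since it covers the start of Rab13 itself and also overlaps Rps27.

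**Figure D1:**
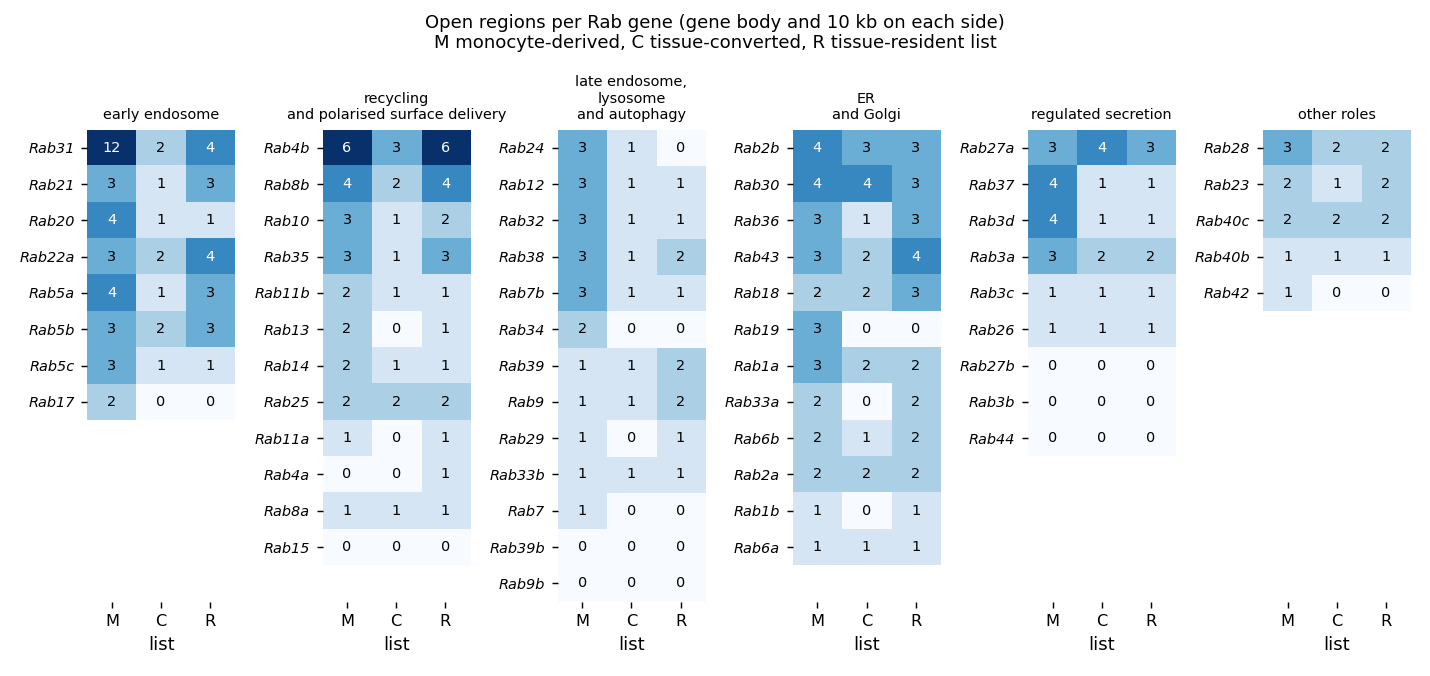
Number of open regions of each Rab gene (rows, grouped by cellular role) in the monocyte-derived (M), tissue-converted (C) and tissue-resident (R) list (columns), counted from 10 kb before to 10 kb after the gene; darker cells hold more regions. Rab31 reaches 12 regions in the monocyte-derived list, and 6 genes are at 0 in every list.

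Start sites carried most of what the lists shared. A peak within 1 kb of the gene start was called for 41 Rab genes in the monocyte-derived list, 33 in the converted list and 38 in the resident list, where 43.8%, 30.5% and 38.0% of all genes had such a peak. All 3 lists called a start peak at 31 Rab genes, or 52.5%, against 28.5% of all genes. Rab genes also had a region of any kind more often. Among genes with a region in some list, the share with a start peak in the monocyte-derived, converted and resident lists was 77.4%, 62.3% and 71.7% for 53 Rab genes and 69.0%, 48.0% and 59.9% for 13727 genes. The start was known for 25 of the 31 genes, and for the other 6 a peak near either gene end was counted, because 11 Rab genes had no promoter entry. Among these 6, the counted region lay outside the gene and nearest Traf7 for Rab26, and nearest Slc9a3r1 for Rab37. Both may therefore be sites of the neighbours.

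At 14 Rab genes the start peak stood at the p-value floor in all 3 lists. Of all 59 Rab genes 14 are thus in this set, with none of the 9 genes of regulated secretion. Of the 13 genes of late endosomes, lysosomes and autophagy, 1 is in it, Rab32. Others of these groups, such as Rab3a, Rab38 and Rab39, had floor-level start peaks in some lists but not in all 3. Whether role groups differ in this was not tested. The same set was not counted over all genes, so its size cannot be called particular to Rab genes. Rab1a and Rab2b act between endoplasmic reticulum and Golgi, Rab18 on lipid droplets and the endoplasmic reticulum, and Rab5a, Rab5b and Rab22a on early endosomes. Rab4b, Rab8a, Rab10 and Rab11b act in recycling and delivery to the cell surface, and Rab32 acts on lysosome-related organelles. Rab28, Rab30 and Rab40c complete the set. The start regions of Rab2b and Rab5b also overlap the neighbours Tox4 and Pmel. The Rab5a start region was 1000 bp wide (chr17:53478789-53479788) and that of Rab8a 625 bp (chr8:72160739-72161363), both with the peak's p-value at the floor of 1e-12 in every list. Of Rab genes with a start peak, 58.5% of those in the monocyte-derived, 54.5% in the converted and 42.1% in the resident list were at the floor, and the same shares over all genes were 44.2%, 38.0% and 31.1%.

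A start peak in only some lists was found at 13 Rab genes. Among genes with a promoter entry, this held for 11 of 48 Rab genes and 3114 of 17273 protein-coding genes. Whether Rab genes differ from others in this was not tested. Rab7, the late endosome GTPase that drives fusion of phagosomes with lysosomes, had a single region in its whole window, a 275 bp peak over its start (chr6:88045114-88045388) with a peak p-value of 1.5e-06 in the monocyte-derived list. Neither tissue list called any region at Rab7. Rab31, Rab24 and Rab13 also had a start peak only in the monocyte-derived list, with p of 7.89e-06, 8.42e-06 and 3.85e-07. The Rab24 peak overlaps the neighbour Prelid1, and the Rab13 peak overlaps the neighbour Rps27. Rab11a, which directs recycling endosomes, had its only region over the start (chr9:64737614-64737788), with a peak p-value of 7.44e-09 in the monocyte-derived and 3.39e-06 in the resident list and no converted peak. Rab1b, Rab29, Rab35 and Rab36 showed the same combination of lists. Rab3d, a GTPase of secretory granules, had a start peak in the monocyte-derived (3.37e-06) and converted (1.69e-06) lists. In the other direction, there was a resident start peak alone at Rab4a (5.63e-06) and Rab6b (6.37e-06) and a converted one alone at Rab3c (3.77e-07), the last 2 being genes known best from neurons. None of these 13 start peaks stood at the floor in any list.

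Members of some subfamilies differed in their start peaks. The 59 genes include 14 subfamilies with at least 2 members, 31 genes in all, grouped by their shared number. In 3 subfamilies every member had a start peak in all 3 lists, namely Rab2 (Rab2a and Rab2b), Rab5 (Rab5a, Rab5b and Rab5c) and Rab8 (Rab8a and Rab8b). In 10 subfamilies some but not all members did. Since 52.5% of all Rab genes had a start peak in all 3 lists, unrelated genes would often differ too. Whether relatives differ more or less than unrelated genes was not tested. Rab11b had floor-level start peaks in every list while Rab11a lacked the converted one, Rab4b likewise while Rab4a had only a resident peak, and Rab6a was called in all lists while Rab6b had only a resident start peak. The Rab6a start region also overlaps the neighbour Mrpl48. In the Rab7 pair, no member had a start peak in all lists. Rab7b, a late endosome GTPase found in macrophages and dendritic cells, instead had a 400 bp region 2.63 kb from the nearer gene end (chr1:131691314-131691713), with p of 1e-12 in the monocyte-derived, 6.93e-06 in the converted and 8.27e-06 in the resident list, and Rab7b has no promoter entry.

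Away from the start, the regions of Rab genes were mainly of the monocyte-derived list. Of 64 regions within 1 kb of a Rab gene start, 40 were in all 3 lists, or 62.5% (95% Wilson interval 50.3 to 73.3%), and 14.1% were in the monocyte-derived list alone. Of the other 91 regions, 17.6% (11.1 to 26.7%) were in all 3 lists and 48.4% (38.4 to 58.5%) in the monocyte-derived list alone. These intervals cover counting error over regions only. Over all genes, 44.6% of 14711 regions at starts and 16.8% of 14957 regions away from any start were in all 3 lists, so the contrast between starts and other sites is a general one. Among the 91, 26 lay at the start of another gene. Without them, 65 regions remained, of which 10.8% were in all 3 lists and 52.3% in the monocyte-derived list alone, against 49.5% of the 14957. At equal lengths the shares in all 3 lists were 53.6% of 56 regions at Rab starts (all gene starts 37.8%) and 18.9% of 53 elsewhere. Regions at starts of other genes were not removed from these 53, and 13.7% of all regions away from any start were in all 3 lists. Of the 53, 32.1% were in the monocyte-derived list alone, against 31.6% of all regions away from any start.

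**Figure D2:**
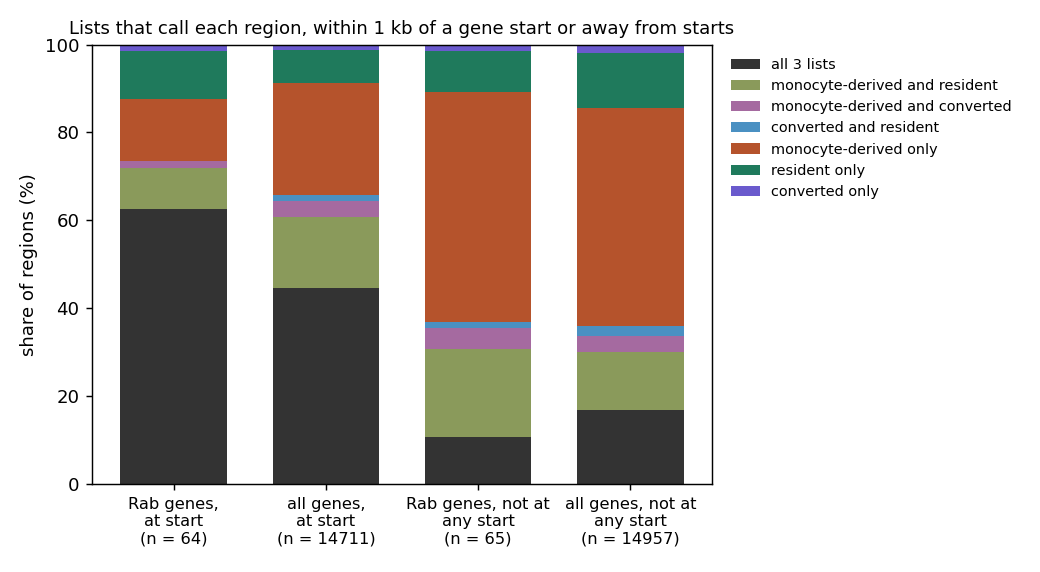
Share of regions (vertical axis, percent) called in each combination of the 3 lists, for regions within 1 kb of a gene start and regions away from any start, at Rab genes and at all protein-coding genes; n is the number of regions. At starts, 62.5% of Rab regions and 44.6% of all regions are in all 3 lists, and away from starts the monocyte-derived list alone holds 52.3% and 49.5%.

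Regions in the monocyte-derived list alone were narrow and of modest p-value. Their median width was 125 bp, against 325 bp for regions in all 3 lists and 100 bp for resident-only regions. A region in several lists spans all its merged peaks, so part of its greater width is built in. None of the 53 stood at the p-value floor, and the smallest p was 7.44e-09. Over the whole monocyte-derived list the median peak was 150 bp wide and 18.5% of peaks stood at the floor. These values were not taken for such regions of all genes. Of the 44 that lay away from a Rab start, 24 were inside the gene and 20 in the flanks, spread over 25 genes, and Rab31 alone held 7. By contrast, only 5 regions inside a Rab gene but away from its start were in all 3 lists, at Rab6b, Rab7b, Rab30 and, with 2 regions, Rab31. The other 11 regions of that kind lay in the flanks, among them floor-level regions nearest Chd8 beside Rab2b and nearest Aph1c beside Rab8b.

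Rab31, a relative of Rab5 that carries cargo between the Golgi and endosomes, had the most regions of the family. Its 121.0 kb gene on chromosome 17 held or flanked 12 regions in the monocyte-derived, 2 in the converted and 4 in the resident list. With equal list lengths the counts were 5, 2 and 2. The region with the smallest p lay 48.2 kb into the gene (chr17:65724264-65724538, 275 bp). Its peak stood at the floor of 1e-12 within the converted and within the resident list, and had a p-value of 1.69e-06 within the monocyte-derived list. A second shared region lay 42.1 kb in (chr17:65730439-65730688), with p of 3.36e-06 in the monocyte-derived, 4.7e-06 in the converted and 1.05e-05 in the resident list. The start peak (chr17:65772564-65772688) was monocyte-derived only. P-values from lists of unknown and perhaps unequal depth give no size of difference between groups.

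**Figure D3:**
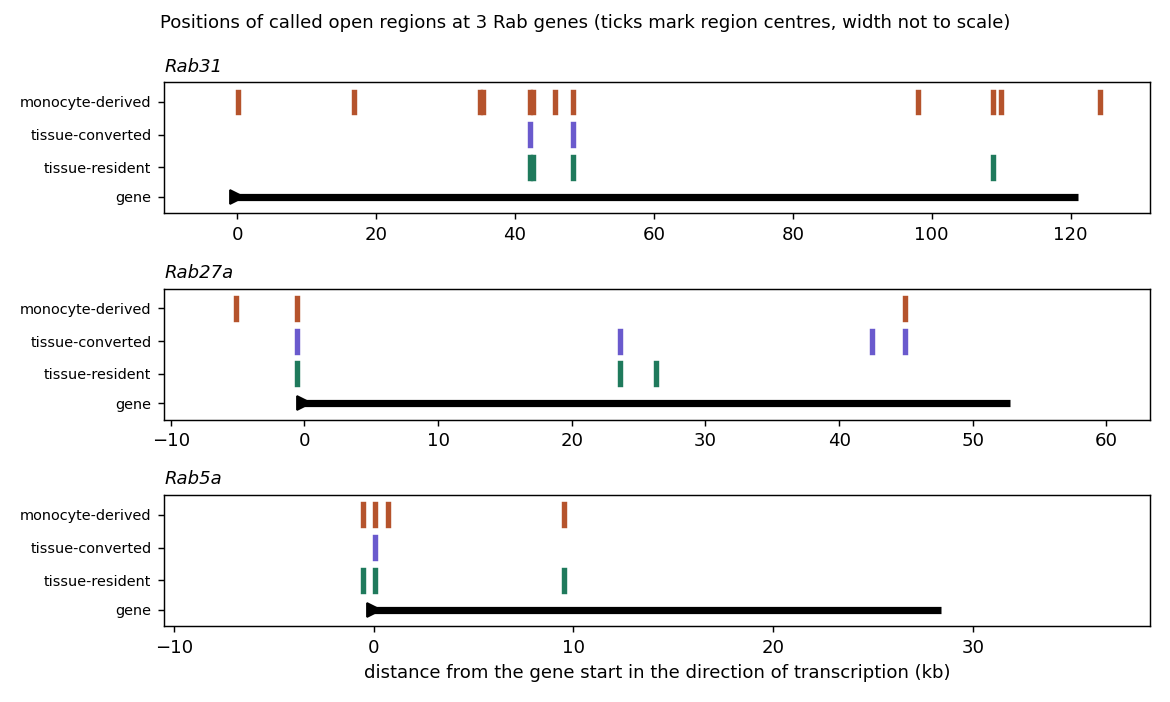
Position of each called region (coloured ticks at the region centre, drawn at a fixed width) along Rab31, Rab27a and Rab5a in the 3 lists; the horizontal axis is the distance in kb from the outermost annotated start in the direction of transcription, and the black bar is the gene. Rab31 shows 12 monocyte-derived ticks against 2 converted and 4 resident ones, and Rab27a shows 4 converted against 3 monocyte-derived ticks.

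Rab27a, which docks lysosome-related secretory granules at the cell surface, had 4 converted, 3 monocyte-derived and 3 resident regions. In the lists as deposited it was the only Rab gene with more converted than monocyte-derived regions, while equal lengths gave 11 such genes and counting in the gene body only gave 2. A region 23529 bases past its outermost start (chr9:73068339-73068563) was called with a peak p-value of 3.77e-07 in the converted and 8.27e-06 in the resident list and had no monocyte-derived peak. No other one of the 155 regions was shared by the tissue lists alone. A 100 bp region (chr9:73087239-73087338) was converted only, with a peak p-value of 4.7e-06, and a 275 bp region (chr9:73089614-73089888) was shared by the converted (2.24e-08) and monocyte-derived (3.77e-07) lists. At equal lengths Rab27a had 4 converted regions, 1 monocyte-derived and 1 resident region. Its start peak was weak in every list, with p from 6.74e-06 to 1.01e-05.

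Rab genes with fewer regions in a tissue list outnumbered those with more, as they did among all genes. The resident list had fewer regions than the monocyte-derived list at 25 Rab genes (42.4%, all genes 35.0%) and more at 6 (10.2%, all genes 7.59%). The converted list had fewer than the monocyte-derived list at 38 (64.4%, all genes 45.3%) and more at 1 (1.69%, all genes 1.81%). Against the resident list, the converted list had fewer regions at 23 Rab genes (39.0%, all genes 29.2%) and more at 3 (5.08%, all genes 4.44%). The background includes the many genes without a region. Among genes with a region, the resident list had fewer than the monocyte-derived list at 47.2% of Rab genes and 55.2% of all genes, the converted list fewer than the monocyte-derived at 71.7% and 71.4%, and fewer than the resident at 43.4% and 46.0%.

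With equal list lengths the tilt was smaller. The resident list then had fewer regions than the monocyte-derived list at 16 Rab genes (27.1%, all genes 19.8%) and more at 13 (22.0%, all genes 16.2%). The converted list had fewer than the monocyte-derived list at 19 (32.2%, all genes 19.2%) and more at 11 (18.6%, all genes 13.2%). Against the resident list, the converted list had fewer at 15 (25.4%, all genes 16.7%) and more at 9 (15.3%, all genes 14.7%).

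**Figure D4:**
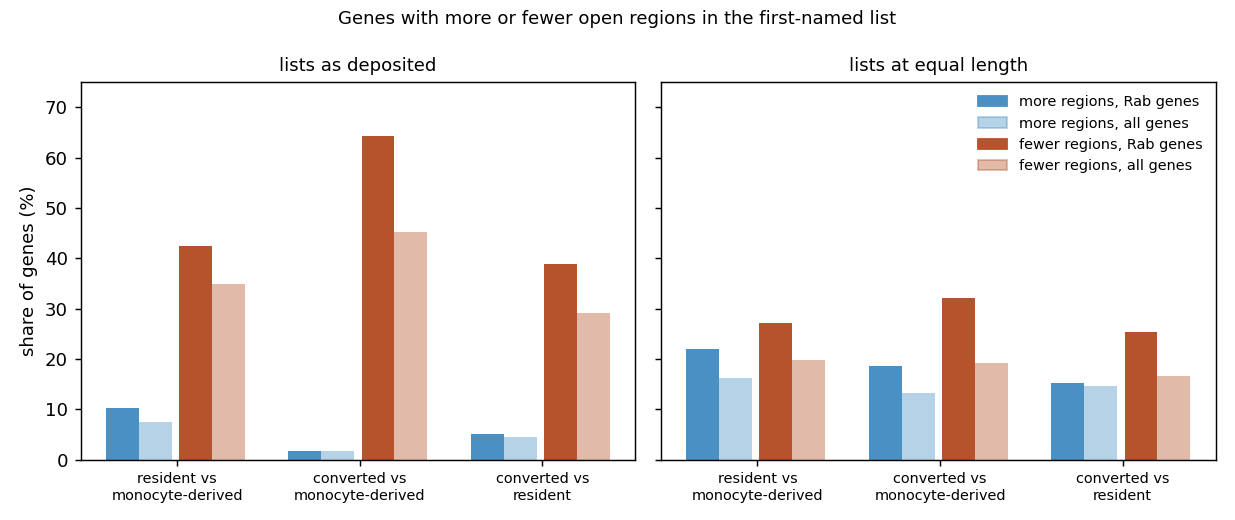
Share of genes (vertical axis, percent) with more or fewer regions in the first-named list of each pair, for the 59 Rab genes and all 21627 protein-coding genes, with the lists as deposited (left) and at equal lengths (right). The excess of fewer over more shrinks from 25 against 6 Rab genes to 16 against 13 for resident versus monocyte-derived.

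The 8 early endosome genes had 34 regions in the monocyte-derived, 10 in the converted and 19 in the resident list. The converted list had fewer regions than the monocyte-derived list at all 8 of these genes (all genes 45.3%, or 71.4% of those with a region), and the resident list at 5 (all genes 35.0%, or 55.2%). At equal lengths the regions numbered 15, 10 and 16. The converted list then had fewer at 4 of the 8 (all genes 19.2%). The resident list had fewer at 3 (all genes 19.8%) and more at 4 (all genes 16.2%), which turned the direction of the group. The 3 Rab5 genes, which drive fusion of early endosomes, had start peaks in every list and differed in the sites around them. Rab5a had 4 monocyte-derived, 1 converted and 3 resident regions, the last including a region 9.33 kb into the gene (chr17:53488564-53488913, peak p-value of 1e-12 in the monocyte-derived and 3.39e-06 in the resident list). At equal lengths Rab5a had 2, 1 and 3 regions in the order monocyte-derived, converted, resident, so that the resident count exceeded the monocyte-derived one. Rab5c had 3, 1 and 1 regions in the same order, and its start peak was at the floor in the monocyte-derived list alone, with a peak p-value of 8.22e-06 in the converted and 8.27e-06 in the resident list. At equal lengths Rab5c had 1 region in each list. Rab20, known for its role in phagosome maturation in macrophages, had 4 monocyte-derived, 1 converted and 1 resident region and no start peak. Its widest region, 14.0 kb into the gene (chr8:11464089-11464613, 525 bp), was at the floor in the monocyte-derived list and at 6.37e-06 in the resident list, and it had no converted peak. At equal lengths Rab20 had 2, 1 and 1 regions.

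Rab22a had more resident than monocyte-derived regions, and Rab21 did so at equal lengths only. Rab22a, an endosomal GTPase, had 3 monocyte-derived, 2 converted and 4 resident regions, and at equal lengths 1, 2 and 3. Rab21, which acts in integrin endocytosis, had 3, 1 and 3 regions, and at equal lengths 1, 1 and 3. In both genes the resident-only regions lay close to the start. They were at most 100 bp wide, 0.144 kb from the start of Rab22a and 0.153 and 0.578 kb from that of Rab21. The Rab22a region (chr2:173659989-173660088) lies near the shared start region chr2:173659414-173659913. The nearer Rab21 region (chr10:115315339-115315438) lies near the shared start region chr10:115315464-115315713. Whether these are sites separate from the start regions was not tested.

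The 12 genes of recycling and polarised delivery to the surface had 26 monocyte-derived, 12 converted and 23 resident regions. The resident list had fewer than the monocyte-derived list at 4 of them (all genes 35.0%, or 55.2% of those with a region). The converted list had fewer at 8 (all genes 45.3%, or 71.4%). At equal lengths the regions numbered 18, 12 and 17, with fewer resident regions at 3 genes (all genes 19.8%) and fewer converted regions at 6 (all genes 19.2%). Rab4b had 6 regions in the monocyte-derived and resident lists and 3 in the converted list, and at equal lengths 5, 4 and 3 in the monocyte-derived, resident and converted lists, but 4 of its 6 regions lay nearest Egln2, a neighbour that encodes an oxygen-sensing hydroxylase. Rab8a, which sends vesicles to the cell surface, had the same floor-level start region in every list and nothing else. Its relative Rab8b had 4 monocyte-derived, 2 converted and 4 resident regions, and at equal lengths 3, 2 and 3. Rab10 had 3, 1 and 2 regions (equal lengths 2, 1 and 1). Rab14, which moves between Golgi and endosomes, had 2, 1 and 1 (equal lengths 1, 1 and 0), and both genes had a start peak in all lists. Rab25 and Rab13 are GTPases of epithelial cells. The regions of Rab25 all lay nearest other genes, and those of Rab13 were assigned to neighbours, though its start region covers both its own start and part of Rps27.

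The 13 genes of late endosomes, lysosomes and autophagy had 22 monocyte-derived, 8 converted and 11 resident regions. The resident list had fewer than the monocyte-derived list at 7 of them (all genes 35.0%, or 55.2% of those with a region). It had more at 2 (all genes 7.59%). The group includes Rab9b and Rab39b, which had no region in any list. Equal lengths left 10, 8 and 9 regions, with fewer resident regions at 4 genes (all genes 19.8%) and more at 2 (all genes 16.2%). Beside Rab7, these included Rab32 and Rab38, which serve lysosome-related organelles. Rab32 had 3 monocyte-derived, 1 converted and 1 resident region, and at equal lengths 2, 1 and 1. Its start peak was shared at the floor, and the 2 monocyte-derived-only regions lay 2.17 and 2.67 kb into the gene (chr10:10555939-10556038 and chr10:10555339-10555538). Rab38 had 3, 1 and 2 regions (equal lengths 2, 1 and 1). Rab34, which positions lysosomes, had 2 regions, both in the monocyte-derived list and nearest Tlcd1 and Rpl23a. Rab24 had 3, 1 and 0 regions, of which all but the start peak lay nearest Mxd3. At equal lengths Rab24 had 0, 1 and 0, which turned its direction for converted against monocyte-derived. More resident regions were found at Rab9, which returns receptors from late endosomes to the Golgi, and Rab39. Each had 1 monocyte-derived, 1 converted and 2 resident regions, and at equal lengths Rab9 had 1, 1 and 2 and Rab39 had 0, 1 and 2. The added region of each was resident-only, 0.354 kb from the start of Rab9 and 0.369 kb from that of Rab39. Each lies near the shared start region of its gene (chrX:166479589-166479863 and chr9:53706089-53706663), and whether it is a separate site was not tested.

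The 12 genes of the endoplasmic reticulum and Golgi had 30 monocyte-derived, 18 converted and 26 resident regions, and each had a region in some list. The resident list had fewer than the monocyte-derived list at 4 of them (all genes 35.0%, or 55.2% of those with a region). It had more at 2 (all genes 7.59%), Rab18 and Rab43. Equal lengths gave 18, 18 and 16 regions, with fewer resident regions at 2 genes (all genes 19.8%) and more at 1 (all genes 16.2%). Rab43, a Golgi GTPase, had 3 monocyte-derived, 2 converted and 4 resident regions, yet at equal lengths 3, 2 and 1, so its direction turned with list length. Rab18 had 2, 2 and 3 regions, and 2 in every list at equal lengths. Rab30, a Golgi GTPase with a 102.9 kb gene, had 4, 4 and 3 regions (equal lengths 3, 4 and 3). Its shared region 11.7 kb from the nearer end, inside the gene, was at the floor in the monocyte-derived list. Rab19 had 3 regions, all monocyte-derived and all before the start, and 0 at equal lengths.

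Of the 9 genes of regulated secretion, 3 had no region (all genes 36.5%). The group had 16 monocyte-derived, 10 converted and 9 resident regions. At equal lengths it had 7, 10 and 7, so the converted count became the highest. The converted list then had more regions than the monocyte-derived list at 3 genes (all genes 13.2%) and fewer at 2 (all genes 19.2%). Outside Rab27a, the largest nets were those of Rab3d and Rab37, each with 4 monocyte-derived, 1 converted and 1 resident region. At equal lengths Rab3d had 0, 1 and 1 regions, which turned its direction, and Rab37 had 2, 1 and 1. Some of these regions lay nearest neighbours, namely Tmem205 and Ccdc159 beside Rab3d and Cd300lf and Slc9a3r1 at Rab37. Counted by the nearest gene end in the lists as deposited, Rab3d had 2, 1 and 0 regions and Rab37 had 1, 0 and 0. The 5 remaining genes, Rab23, Rab28, Rab40b, Rab40c and Rab42, had 9, 6 and 7 regions, and 5, 6 and 6 at equal lengths. Rab23, which restrains hedgehog signalling, had a start peak in all 3 lists, with p from 4.13e-06 to 5.61e-06.

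The number of regions called only in a tissue list depended on list length. In the lists as deposited, no monocyte-derived peak overlapped 18 of the 155 regions, at 14 genes, and 14 of these 18 were resident-only. The resident-only regions were 75 to 125 bp wide, with p from 3.39e-06 to 1.18e-05, and 13 of the 14 lay inside the gene. They were found at Rab3c, Rab4a, Rab6b, Rab8b, Rab9, Rab18, Rab21, Rab22a, Rab27a, Rab33a, Rab36, Rab39 and Rab43, with 2 at Rab21. Converted-only regions numbered 3, at Rab3c, Rab24 and Rab27a. Resident-only regions made up 9.03% (5.46 to 14.6%) of the regions at Rab genes and 10.0% of those at all genes. At equal lengths, 20 of 109 regions at Rab genes were resident-only (18.3%, all genes 17.5%), 10 converted-only (9.17%, all genes 11.8%) and 6 in both tissue lists alone (5.50%, all genes 7.86%). As many, 20, were monocyte-derived only (18.3%, all genes 21.8%).

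Among the proteins that act on Rabs, genes with fewer resident than monocyte-derived regions also outnumbered those with more in the lists as deposited. Where 35.0% of all genes had fewer resident than monocyte-derived regions and 7.59% had more, this was so for 4 and 2 of 8 genes of escort, prenylation and GDP dissociation inhibition (50.0% fewer). It was so for 18 and 2 of 33 exchange factors (54.5% fewer), 25 and 1 of 36 TBC-domain activating proteins (69.4% fewer), and 22 and 5 of 45 effectors (48.9% fewer). Among genes with a region the shares with fewer were 50.0% of 8, 60.0% of 30, 71.4% of 35 and 55.0% of 40 in these 4 lists, against 55.2% of all genes. The direction at equal lengths was weaker or gone, with 3 fewer and 3 more for escort and prenylation, 11 and 9 for exchange factors, 13 and 7 for activating proteins and 12 and 9 for effectors, where 19.8% of all genes had fewer and 16.2% more. Only 1 of the 36 activating proteins had no region in any list.

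The triplets that follow give regions in the order monocyte-derived, converted, resident. Among activating proteins, Tbc1d1, which acts on Rabs of glucose transporter vesicles, had 17, 3 and 2 regions, and at equal lengths 9, 3 and 1. Tbc1d2b had 14, 6 and 7 (equal lengths 8, 6 and 4) and Rabgap1l 14, 7 and 7 (9, 7 and 6). Of the exchange factors, Rin2 and Rin3 load Rab5 with GTP. Rin2 had 13, 7 and 8 (equal lengths 9, 7 and 4) and Rin3 had 8, 2 and 3 (3, 2 and 1). Among the proteins that prepare Rabs for membranes, Rabggta, a subunit of the geranylgeranyl transferase, had 4, 1 and 1 (equal lengths 2, 1 and 1). Of effectors, Lrrk1 had 9, 4 and 3 (equal lengths 5, 4 and 2) and Sytl3, a partner of Rab27, 6, 2 and 1 (2, 2 and 0). Each of these genes had fewer resident than monocyte-derived regions on either scale. More resident regions in the lists as deposited were found at Tbc1d17 (3, 2 and 4), at Mon1a (1, 0 and 2), part of the exchange factor of Rab7, at Ankrd27 (2, 1 and 3), an exchange factor of Rab21, and at Rilpl1 (2, 2 and 4). At equal lengths each of these 4 had as many resident as monocyte-derived regions, at 3, 1, 1 and 2. The other subunit of the transferase, Rabggtb, had 2, 2 and 3 (equal lengths 1, 2 and 2) and the escort protein Chml 2, 3 and 3 on either scale.

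Rab promoters were rich in CpG sites, and those without a start peak were poorer in them. Over 300 bases, 250 before and 50 after the start, promoters with a start peak in all 3 lists had a median of 25 CpG sites (25 genes, range 9 to 43). Those with a start peak in 1 or 2 lists also had a median of 25 (11 genes, 11 to 43), and those with none had 9.5 (12 genes, 5 to 38). The medians over all genes were 23, 20 and 5. The ranges overlap, and Rab15 had 38 CpG sites without a region in any list. Of the 48 promoters, 32 had at least 1 base covered by a monocyte-derived peak, 26 by a converted and 28 by a resident peak. The monocyte-derived peaks covered 13 of them wholly, the converted 6 and the resident 7.

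**Figure D5:**
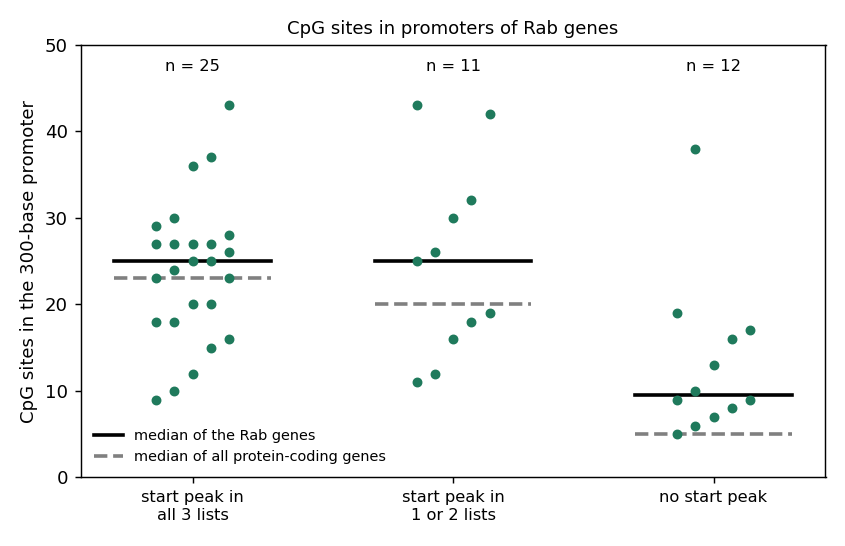
CpG sites in the 300-base promoter (vertical axis) of 48 Rab genes, each gene a point, grouped by whether a start peak was called in all 3 lists, in 1 or 2 lists or in none; solid lines are medians of the Rab genes and dashed lines medians of all genes with a promoter entry. The medians are 25, 25 and 9.5 for Rab genes and 23, 20 and 5 for all genes.

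The GC box GGGCGG, bound by SP and KLF factors, was present in 34 of 48 Rab promoters, or 70.8% (56.8 to 81.8%), against 46.9% of 17273 promoters of the same length. It was also common among all promoters with a start peak in every list, at 73.0%, and 80.0% of the 25 Rab promoters of that kind held it. The CCAAT box, bound by NF-Y, was in 47.9% of Rab promoters and 39.6% of all. Of motifs of myeloid factors, GAGGAAG (PU.1) was in 16.7% of Rab promoters and 13.1% of all, and TGANTCA (AP-1) in 4.17% and 7.09%. Motifs differ in length and base content, so shares of different motifs do not compare. The E-box CACGTG, the core read by lysosome and autophagy regulators of the TFE family, was in 5 Rab promoters (10.4%, all 8.01%), among them Rab5a and Rab20 shown above. The GATA motif AGATAA was in 2.08% of Rab promoters and 9.99% of all, and the STAT6 motif in 4.17% and 6.45%. Further shares were 10.4% and 12.1% for CCGGAAG (ETS), 8.33% and 3.23% for AAGATGGC (YY1), 4.17% and 3.64% for GCGCATGC (NRF1), and 4.17% and 2.36% for TGACGTCA (CREB). All motifs were searched on both strands, and none of these letters reports on the factor itself.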

How the data were processed

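ATAC-seq libraries of 9 samples, 3 in each of 3 groups, were made by the authors, and the submitters' processing notes name Bowtie2 2.2.9 as a tool and mm10 (GRCm38) as the build. Peak calling, duplicate handling, transposase shift and replicate merging were not given in the sources used here. Each line of the deposited lists holds a position and the authors' p-value of that peak, without counts. These p-values ranked and filtered peaks inside their own list, and where printed for several lists they describe each list's peak and measure no difference. Depth per sample is unknown, so no precision from depth can be given.

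Regions were formed by merging peaks of the 3 lists that shared 1 bp or more. Gene positions, gene starts and promoter sequences came from RefSeq, GRCm38. For 11 Rab genes without a promoter entry (Rab2a, Rab4a, Rab7b, Rab18, Rab26, Rab27b, Rab30, Rab36, Rab37, Rab38 and Rab44), a peak within 1 kb of either gene end counted as a start peak. Distances of their regions are given to the nearer end. Exons and introns were not used here.

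No test was made, since each group is 1 list, and shares carry 95% Wilson intervals that cover counting error over regions or genes. Alternatives were equal list lengths (ties to wider peaks), p at most 1e-10 or 1e-05, an overlap that covers 50% or more of the shorter peak, other gene windows, the nearest gene end, a start distance of 2.5 kb and joining of peaks at most 200 bp apart. The methods were tested on simulated data with the 21627 genes, where 12000 of 12000 regions were recovered.

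The members, the role groups, the gene lists and the motifs were chosen with earlier results of these data known, and Rab42 was put in its group after the files had been read. Named genes were those with the most regions, the 5 largest nets in each direction, those with tissue regions lacking a monocyte-derived peak, those with no region or with a start peak in only some lists, 15 genes fixed for roles in endosomes and phagosomes, and the 2 largest nets in each direction of each pathway list, of which 1 gene is not reported here. Other genes are named only as relatives, neighbours or markers, or to complete a counted group. The software was pandas 2.3.3, numpy 2.4.6, scipy 1.17.1 and matplotlib 3.10.9 in Python 3.11.15.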

Additional observations from a re-analysis of the deposited data

How the results depend on the processing

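Of 96 alternatives over 17 results, 70 stayed within 1.5 times the reported count, or within its interval for the share, and 26 did not. With p at most 1e-10, a region was left at 29 Rab genes in the monocyte-derived, 22 in the converted and 19 in the resident list, and a start peak at 24, 18 and 16. The resident list then had more regions than the monocyte-derived list at 2 genes and fewer at 16, the converted list more at 2 and fewer at 14, and the converted list fewer than the resident list at 1. The share of regions in all 3 lists was 45.0%. At equal lengths the counts were 13 more and 16 fewer for resident against monocyte-derived, 11 and 19 for converted against monocyte-derived, and 9 and 15 for converted against resident. The lists with fewer resident regions then held 11 exchange factors, 13 activating proteins and 12 effectors. With 50 kb on each side, fewer regions were found at 41 genes for resident against monocyte-derived and at 37 for converted against resident. With the gene body only, and with the nearest gene end only, converted exceeded monocyte-derived at 2 genes, and with p at most 1e-05 in every list converted exceeded resident at 6. The equal lengths and stricter p-values leave fewer peaks and the wider windows hold more; beyond that the cause was not tested. Joining peaks at most 200 bp apart, chosen after seeing the data, moved no count by over 1.5 times. No paired analysis was possible because replicate numbers are lost in the merged lists, 1 for each group, and for the same reason no replicate could be left out in turn. Depth is unknown, so a missing region may be open but below detection.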
